A study of Mus musculus with 3 samples.

Results

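The interferon-inducible GTPases of the Gbp and Irg families were followed through RNA-seq of mouse hippocampus. They were chosen by name from the deposited gene table: Gbp2, Gbp3, Gbp5, Gbp6, Gbp7, Gbp9, Igtp, Irgm1, Irgm2 and Iigp1, all of which were found, so that 10 of 54532 genes in the table are described. The 3 libraries came from mice 10 months old on a C57BL/6 background and were 1 wild type (WT), 1 PS19 and 1 PS19 Zbp1+/-. PS19 mice carry a human MAPT transgene with a tau mutation under the mouse Prnp promoter, which is active in neurons and also in other cells, and serve as a tauopathy model. The label of the last group gives the PS19 transgene with 1 Zbp1 allele lost, and no library without the transgene carries the Zbp1 mutation. The labels do not say how many animals went into a library, their sex, or at which of the named animal facilities (Zhejiang University and Xiamen University) each was kept. With 1 library per genotype there is no replicate spread, so every difference below compares libraries and has no replicate check.

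Guanylate-binding proteins (GBPs) are large GTPases of the dynamin superfamily, and immunity-related GTPases (IRGs) are smaller. Both are transcribed at low levels at rest and are induced by interferons, in the brain in microglia, astrocytes and endothelial cells among others. The proteins assemble on the membranes of vacuoles that hold microbes and on bacterial surfaces, where GBPs promote membrane breakage and inflammasome signalling. Induction by interferon-gamma runs from its receptor and the kinases JAK1 and JAK2 to GAS elements in the DNA, and also through IRF1. Type I interferon acts through a complex that holds IRF9 and binds the interferon-stimulated response element (ISRE). Zbp1, the gene lowered in the third genotype, encodes a sensor of Z-form nucleic acids and is itself interferon-inducible.

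Levels are given as FPKM, fragments per kilobase of exonic gene length, adjusted for the size of the library. Whole reads recovered from these values summed to between 16400328 and 17109734 per library. PS19 Zbp1+/- had the most reads, 17109734, yet the smallest library size implied by its FPKM values, 15826984. In WT and PS19 the implied size was above the sum of reads. Scaling by total reads would therefore lower every ratio of PS19 Zbp1+/- over another library. Reads of Zbp1 numbered 91 in PS19, 5 in WT and 0 in the library labelled PS19 Zbp1+/-. An intact allele at its PS19 level would have left reads there, and one at the WT level might have left few, so the reads do not settle whether 1 allele or both were lost. Below, PS19 Zbp1+/- stands for the library so labelled. Neuronal markers of the hippocampus (Snap25, Prox1, Slc17a7) were present in every library, though not at like levels. For PS19 Zbp1+/- over PS19 the ratio of reads per library size was 2.15 for Slc17a7, 1.10 for Snap25 and 0.547 for Prox1. PS19 Zbp1+/- stood apart in several ways that the genotype label does not name. It had 0 reads of Xist, against 11062 in WT and 13350 in PS19, and was the library with reads of Y-linked genes (Uty, Kdm5d, Ddx3y and Eif2s3y), so sex and genotype cannot be told apart in its comparisons. Its summed FPKM of 8 choroid plexus markers was 10.8, against 3128 in WT and 1915 in PS19. Among weakly expressed coding genes with 8 to 12 reads in both other libraries, 25 of 129 (19.4%) had no read in PS19 Zbp1+/-, against 1 of 72 for WT and 0 of 95 for PS19. Among coding genes with 20 to 150 reads in both other libraries, 31 of 2488 (1.25%) had none in PS19 Zbp1+/-. Counting intervals therefore understate the uncertainty of low counts in that library.

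All 10 GTPases had their highest level in the PS19 library. Their FPKM ran from 0.0389 to 1.63 in WT, from 0.661 to 6.62 in PS19 and from 0 to 1.36 in PS19 Zbp1+/-. Their FPKM summed to 39.8 in PS19, against 8.61 in WT and 5.87 in PS19 Zbp1+/-. An FPKM of 1 was reached by 9 members in PS19, 4 in WT and 2 in PS19 Zbp1+/-. In bulk tissue, a change in the number of cells that express these genes and a change in RNA per cell cannot be told apart.

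**Figure D1:**
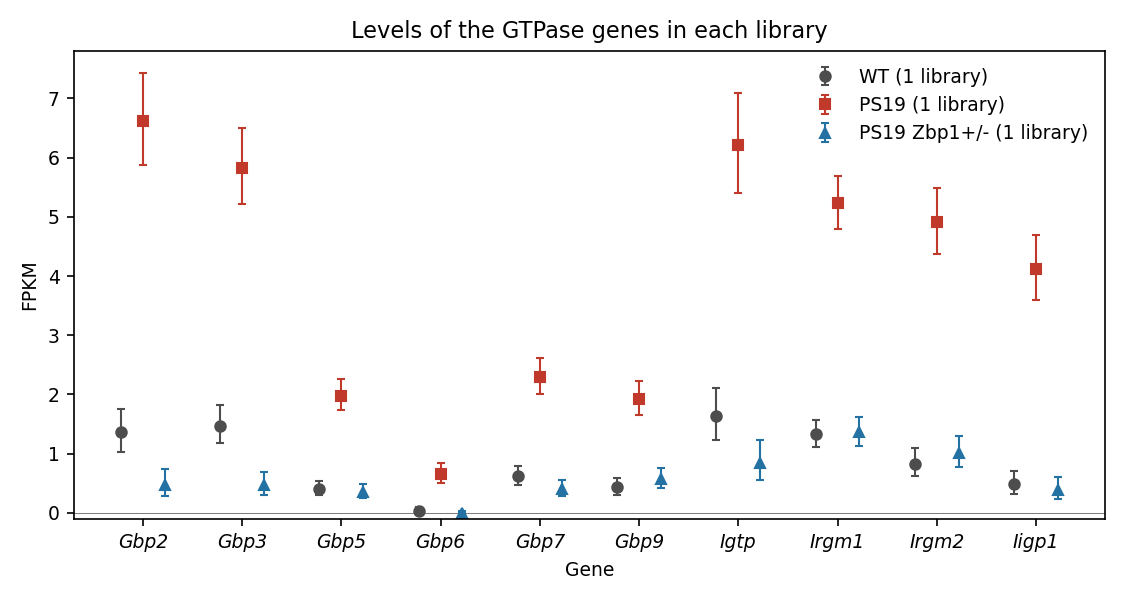
FPKM (y axis) of each GTPase gene (x axis) in the WT, PS19 and PS19 Zbp1+/- libraries, 1 library each; bars are exact 95% counting intervals of that library and not replicate spread. For every gene the PS19 point is the highest, from 0.661 for Gbp6 to 6.62 for Gbp2.

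The Gbp genes on chromosome 3 had the higher levels of their family in PS19. In WT Gbp9 of chromosome 5 came above Gbp5, and in PS19 Zbp1+/- it came above all of them. Gbp2 (ENSMUSG00000028270; 142620602 to 142638008, plus strand) encodes a prenylated GBP that coats microbial vacuoles. Its FPKM was 1.36 in WT (59 reads), 6.62 in PS19 (288 reads) and 0.477 in PS19 Zbp1+/- (19 reads). Gbp3 (ENSMUSG00000028268; 142560026 to 142573209, plus strand), which lies beside it, had an FPKM of 1.47 (83 reads), 5.83 (329 reads) and 0.464 (24 reads) in the same order. For both genes the PS19 Zbp1+/- library was below WT as well as below PS19. Gbp5 (ENSMUSG00000105504; 142493978 to 142522344, plus strand) encodes a GBP known to promote NLRP3 inflammasome assembly. It had an FPKM of 0.402 in WT (46 reads), 1.98 in PS19 (227 reads) and 0.352 in PS19 Zbp1+/- (37 reads). Gbp7 (ENSMUSG00000040253; 142530342 to 142550149, plus strand), whose product has been tied to autophagy and oxidative defence, had an FPKM of 0.619 (60 reads), 2.30 (223 reads) and 0.405 (36 reads). In Gbp5 and Gbp7 PS19 stood alone as the high library. Stretches of 212 to 370 bases of Gbp5 matched other transcripts at 90.8% to 94.8% identity, and Gbp7 shares 637 exonic bases (11.3%) with Gm43802 on its strand.

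The Gbp genes on chromosome 5 belong to a cluster of close copies. Gbp9 (ENSMUSG00000029298; 105077630 to 105139539, minus strand) was at an FPKM of 0.437 in WT (39 reads), 1.92 in PS19 (172 reads) and 0.574 in PS19 Zbp1+/- (47 reads). Gbp6 (ENSMUSG00000104713; 105270702 to 105293698, minus strand) had an FPKM of 0.0389 (4 reads), 0.661 (68 reads) and 0. PS19 was the high library for both, and Gbp6 was the member with the lowest level in every library. By counting error alone its count of 0 in PS19 Zbp1+/- allows an FPKM of up to 0.0391. Reads of these genes may be shared with copies: the longest transcript of Gbp6 matched Gbp10 at 98.5% and Gm43302 at 99.6% identity over 1380 bases each, and Gbp9 matched 6 transcripts of the cluster at 91.8% to 94.5%. Gbp6 also shares 1726 exonic bases, 29.0% of its exons, with Gm43302 on the same strand. How the submitters counted reads with several matches is not given in the sources used here, so the values of Gbp6 and Gbp9 are uncertain. No transcript matched Gbp2, Gbp3, Igtp, Irgm1, Irgm2 or Iigp1 at 90% identity over 200 bases or more.

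The Irg genes divide into regulators, which sit on the cell's own membranes and hold the effectors inactive there, and effectors, which attack the vacuole. Iigp1 (Irga6; ENSMUSG00000054072; chromosome 18, 60376029 to 60392627, plus strand) is the effector of the set. Its FPKM was 0.483 in WT (26 reads), 4.11 in PS19 (222 reads) and 0.385 in PS19 Zbp1+/- (19 reads). PS19 stood alone, with the other libraries close together. The table gives Iigp1 a length of 3121 bases, against 5823 exonic bases in the GENCODE M21 annotation, which bears on its level and not on its ratios between libraries.

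The regulators lie on chromosome 11. Irgm1 (ENSMUSG00000046879; 48861968 to 48871683, minus strand), which is known to take part in autophagy and mitochondrial upkeep, had the most reads of any member in all 3 libraries. Its FPKM was 1.33 in WT (133 reads), 5.23 in PS19 (525 reads) and 1.36 in PS19 Zbp1+/- (125 reads). Irgm2 (ENSMUSG00000069874; 58199618 to 58222782, plus strand) had an FPKM of 0.832 (53 reads), 4.91 (313 reads) and 1.01 (59 reads). For these 2 regulators PS19 Zbp1+/- was at or slightly above WT. Igtp, also called Irgm3 (ENSMUSG00000078853; 58199556 to 58207591, plus strand), had an FPKM of 1.63 (57 reads), 6.21 (217 reads) and 0.844 (27 reads), with PS19 Zbp1+/- below WT. Igtp and Irgm2 share 162 exonic bases on the same strand, 8.01% of Igtp and 4.39% of Irgm2, so reads from that stretch cannot be assigned to either.

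In PS19 the order of levels was Gbp2, Igtp, Gbp3, Irgm1, Irgm2, Iigp1, Gbp7, Gbp5, Gbp9 and Gbp6. Of the 9 pairs of neighbours in that order, 2 had counting intervals that did not overlap, Iigp1 against Gbp7 and Gbp9 against Gbp6. The place of Iigp1 rests on the length the table gives it, and with the longer annotated length it would come lower in the order. In WT the intervals separated Irgm1 from Irgm2 and Gbp5 from Gbp6. In PS19 Zbp1+/- the order began with Irgm1, Irgm2 and Igtp, with Gbp2 in the fifth place and Gbp3 after it, and the intervals separated only Gbp5 from Gbp6. Gbp2, first of the 10 in PS19, thus came below all 3 regulators of the Irg family in PS19 Zbp1+/-, with an interval that overlapped that of Igtp.

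The first comparison sets PS19 against WT and bears on the effect of the tau transgene. All members tested were at least 2-fold higher in PS19. The largest difference on the log scale was that of the effector Iigp1 and the smallest that of Gbp9. The first place of Iigp1 rests on the length the table gives it, and with the longer annotated length its difference would be smaller. The vacuole-coating Gbp2 and the regulator Irgm2 followed Iigp1.

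Libraries were compared by their difference of log2(FPKM + 1), which understates the change of weakly expressed genes, over the protein-coding genes that reached an FPKM of 1 in one of the compared libraries. Genes were counted from a difference of 1 log2 unit, called 2-fold here. Of the 10 members 9 were tested and Gbp6 was not, being under an FPKM of 1 in every library. All 9 were at least 2-fold higher in PS19, against 2.2% of the 12703 genes tested. Their median difference was 1.45, and 1.44 with Gbp6 included, against a median of -0.03 over all genes tested. Of the 9, Gbp5, Gbp7, Gbp9, Irgm2 and Iigp1 reached the FPKM minimum through PS19 alone and so had to be higher there. Gbp2, Gbp3, Igtp and Irgm1 reached it in WT too, with differences of 1.69, 1.47, 1.45 and 1.42. The median was 1.09 for the 5 Gbp genes tested and 1.57 for the 4 Irg genes. The Irg medians, here and below, rest in part on the length the table gives Iigp1.

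Counting error was taken from the ratio of reads per library size, with exact (Clopper-Pearson) 95% intervals that cover counting error only. Irgm1, the most deeply counted member, was 3.94-fold higher in PS19 (95% interval 3.25 to 4.80). Gbp2 was 4.87-fold higher (3.67 to 6.56) and Gbp3 3.96-fold (3.10 to 5.10). The intervals of these 3 ratios overlapped. Iigp1 had a ratio of 8.52 (5.66 to 13.3), and its interval lay above those of Gbp3, Gbp7, Igtp and Irgm1. Gbp6, from 4 reads in WT, had the widest interval, 17.0-fold with bounds of 6.33 and 64.1. The remaining ratios were 3.71 for Gbp7, 3.80 for Igtp, 4.40 for Gbp9, 4.92 for Gbp5 and 5.89 for Irgm2. The interval lay above 1 for 10 of 10 members, against 28.3% of all genes tested. Summed over the members, reads were 4.61-fold higher in PS19 (4.20 to 5.06), with 4.48 for the Gbp genes and 4.74 for the Irg genes.

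**Figure D2:**
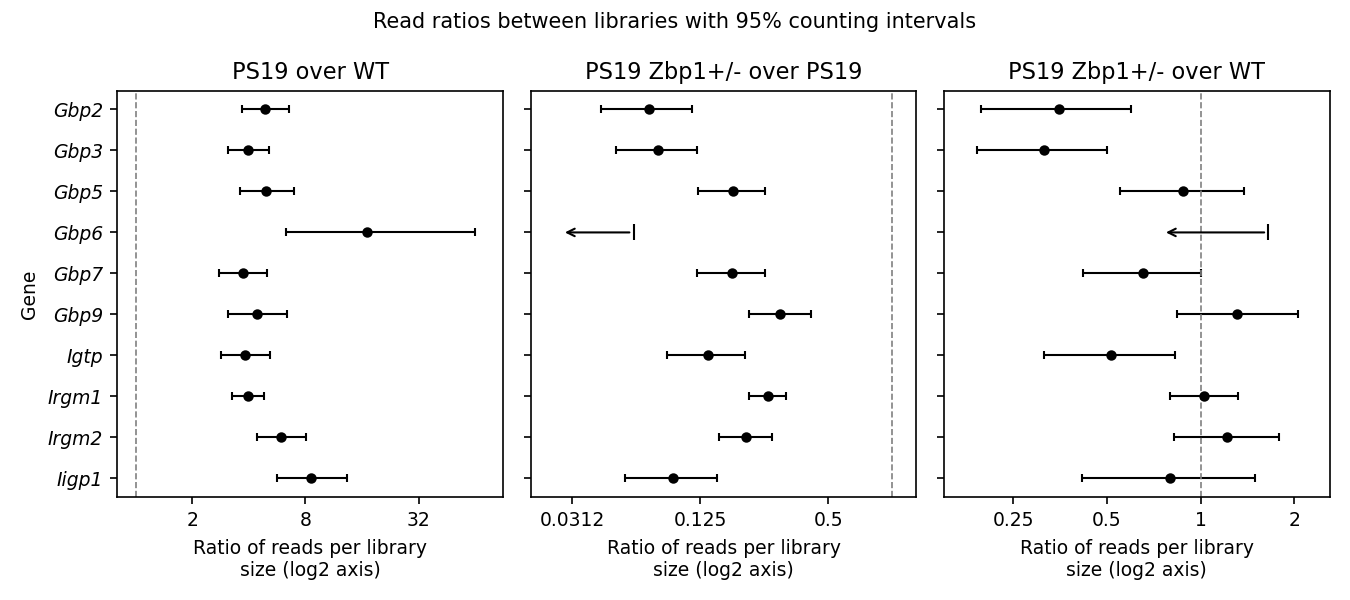
Ratio of reads per library size for each GTPase gene (log2 axis; dashed line at 1), for PS19 over WT, PS19 Zbp1+/- over PS19 and PS19 Zbp1+/- over WT, with exact 95% counting intervals; an arrow marks a count of 0 and starts at the upper bound. All 10 intervals lie above 1 in the first panel and below 1 in the second, and 3 of 10 lie below 1 in the third (Gbp2, Gbp3 and Igtp).

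Promoter sequence was read for the members because they were high in the same library, and the stretches below carry the element that interferon-activated complexes bind. RefSeq windows (GRCm38.p6) from 250 bases before to 50 after the start site were found for 7 of the 10 members. No window was matched for Gbp6, Gbp9 and Iigp1. The ISRE core, GAAANNGAAA searched on both strands, was present in 7 of the 8 windows of these genes, against 3.44% of the 32851 windows in the table. Gbp3 has 2 windows, of which 1 holds the core, so each of the 7 genes has a window with it. The capitals mark the core, which reads in its reverse complement in the Gbp genes, and in Gbp3 and Irgm1 the capitals hold a pair of overlapping matches. Sequences run 5′ to 3′ on the gene's strand. Positions are chr3:142620579-142620638 for Gbp2, chr3:142559974-142560039 for Gbp3, chr3:142496744-142496803 for Gbp5 and chr3:142530258-142530317 for Gbp7, all on the plus strand. They are chr11:58199497-58199555 (plus) for Igtp, chr11:48871421-48871475 (minus) for Irgm1 and chr11:58214888-58214947 (plus) for Irgm2.
Gbp2: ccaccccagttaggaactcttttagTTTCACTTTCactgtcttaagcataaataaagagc
Gbp3: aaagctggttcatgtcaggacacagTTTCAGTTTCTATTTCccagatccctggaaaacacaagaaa
Gbp5: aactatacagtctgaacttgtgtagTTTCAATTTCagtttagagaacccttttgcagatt
Gbp7: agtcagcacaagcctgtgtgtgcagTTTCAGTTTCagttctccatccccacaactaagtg
Igtp: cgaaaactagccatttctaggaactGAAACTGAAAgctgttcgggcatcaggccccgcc
Irgm1: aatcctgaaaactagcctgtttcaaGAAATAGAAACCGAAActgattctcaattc
Irgm2: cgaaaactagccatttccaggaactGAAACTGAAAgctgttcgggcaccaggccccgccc

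In 6 of these 7 genes the core began within 64 bases before the start site, and in Gbp5 it began 165 bases before it. The start sites are those of RefSeq, and other transcripts of these genes begin elsewhere. The GAS element, TTCNNNGAA, was present in the windows of Gbp5, Gbp7, Igtp and Irgm2, that is 4 of the 8 windows, against 8.30% of all windows. In Igtp and Irgm2 it lay just upstream of the ISRE core without overlapping it, from 45 to 37 and from 75 to 67 bases before the start. The windows of Igtp and Irgm2 were identical at 244 of 265 aligned positions (92.1%), with 70 gap positions left out. This likeness can be seen in the printed stretches. By the same measure the other pairs of windows aligned were identical at 58.2% to 67.2%. In the other lists the ISRE core was found in 6 of 9 further GTPases of the families with a window, 3 of 16 genes of the induction pathway, 1 of 7 microglia markers, and none of 7 autophagy conjugation and 8 inflammasome genes. A match describes letters only and is not evidence of binding in these samples.

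**Figure D3:**
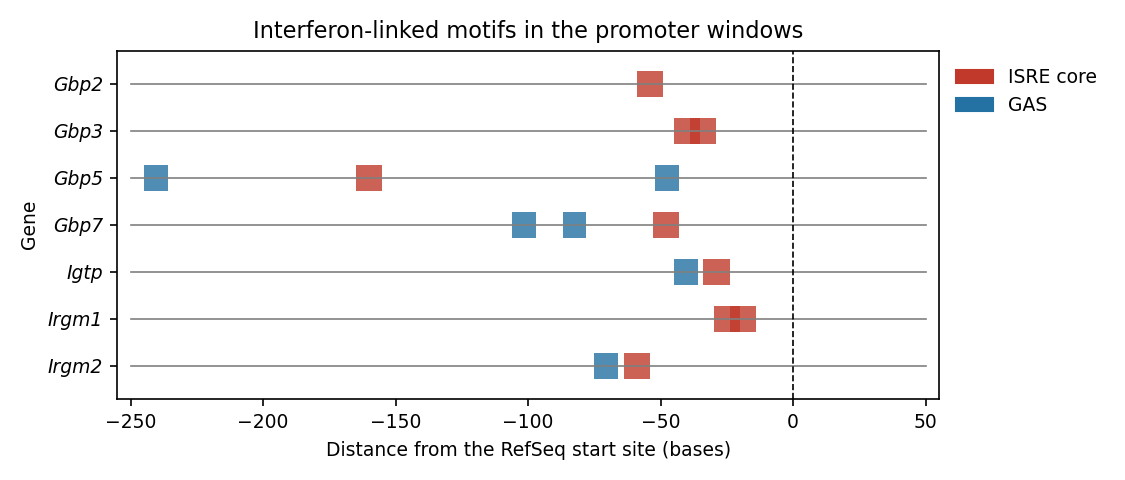
Matches of the ISRE core and the GAS element in the RefSeq promoter window of each of the 7 GTPase genes (y axis), by distance from the start site in bases (x axis; dashed line at the start). Each gene has an ISRE core in the window drawn, within 64 bases of the start in every gene but Gbp5; a second Gbp3 window, without the core, is not drawn.

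The second comparison sets the library labelled PS19 Zbp1+/- against PS19. All 10 GTPases had fewer reads in PS19 Zbp1+/-. On the log2(FPKM + 1) scale Gbp2 and Gbp3 had the largest differences, and by reads Gbp6 did, with 68 against 0. Of the 9 tested, 8 were at least 2-fold lower, against 5.16% of the 12772 genes tested, and Gbp9 was not, at -0.89. Of the 9, all but Irgm1 and Irgm2 reached the FPKM minimum through PS19 alone and so had to be lower in PS19 Zbp1+/-. Irgm1 and Irgm2 reached it in both libraries, with differences of -1.40 and -1.55. Their median difference was -1.55, and -1.48 with Gbp6, against 0.04 over all genes tested. The median was -1.23 for the Gbp genes tested and -1.72 for the Irg genes.

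The spread among members was wider here than in the first comparison. Gbp2 had a difference of -2.37 and a read ratio of 0.0721 (95% interval 0.0428 to 0.115), that is 13.9-fold fewer reads. Gbp3 had a difference of -2.22 and was 12.5-fold lower (ratio 0.0797, 0.0503 to 0.121), and Iigp1 was 10.7-fold lower (ratio 0.0935, 0.0552 to 0.149). At the other end Gbp9 was 3.35-fold lower (ratio 0.298, 0.211 to 0.414) and Irgm1 3.85-fold lower (ratio 0.260, 0.212 to 0.317). The intervals of Gbp9 and Irgm1 did not overlap those of Gbp2, Gbp3 and Iigp1, a gap beyond counting error alone. Between these lay Irgm2 at 4.86-fold, Gbp5 at 5.62-fold, Gbp7 at 5.67-fold and Igtp at 7.36-fold lower. Gbp2, Gbp3 and Iigp1 had 19, 24 and 19 reads in PS19 Zbp1+/-, where counting intervals understate the uncertainty of low counts. Gbp9 may share reads with its copies. Gbp6, with 68 reads against 0, had an upper bound of 0.0609 for its ratio, and was 20.8-fold lower with the 0 set to 3 reads. The interval lay below 1 for 10 of 10 members, against 32.6% of all genes tested. Summed over the Gbp genes the ratio was 0.136 (0.115 to 0.160) and over the Irg genes 0.197 (0.170 to 0.227), and these intervals did not overlap. The Irg sum leaned on Irgm1, with 525 of 1277 reads in PS19 and 125 of 230 in PS19 Zbp1+/-. The median differences given above, -1.23 for the Gbp genes and -1.72 for the Irg genes, had the opposite order. No difference between the families is therefore read from these sums. Among all genes called in this comparison 27.9% were higher, and 11.1%, 14.7% or 16.9% when libraries were rescaled to the same sum, by total reads or by the median ratio. Every member stayed lower under each of these scalings.

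The third comparison sets PS19 Zbp1+/- against WT. It shares a library with each of the other comparisons, as they share PS19 with one another, so the 3 are not independent. No member was 2-fold lower, where 2.28% of the 12436 genes tested were, and none was 2-fold higher. Only 5 members reached the FPKM minimum, with a median difference of -0.51 against 0.01 over all genes tested. The median over all 10 was -0.08.

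By reads the members fell into unlike sets. Gbp3 had a ratio of 0.315 (95% interval 0.191 to 0.502), Gbp2 of 0.351 (0.198 to 0.597) and Igtp of 0.516 (0.314 to 0.830), all below WT beyond counting error. For 7 members the interval held 1. An interval below 1 was found in 3 of 10 members, against 31.3% of all genes tested, which is a share near the background. The regulators Irgm1 and Irgm2 had ratios of 1.02 (0.796 to 1.32) and 1.21 (0.823 to 1.79), and Gbp9 had 1.31 (0.841 to 2.06). The sign of the Irgm1 difference, 0.02 on the log2 scale, changed under 3 other scalings. Iigp1, at 0.797 (0.417 to 1.5), and Gbp5, at 0.877 (0.553 to 1.38), were also within counting error of WT, and Gbp7 had 0.654 (0.420 to 1.01). Scaled by total reads these ratios would be lower, so the Gbp7 interval might no longer hold 1. Intervals under that scaling were not computed. Gbp6, with 4 reads in WT and 0 in PS19 Zbp1+/-, showed no difference detectable at this depth. Over all members the summed reads had a ratio of 0.765 (0.671 to 0.872), over the Gbp genes 0.611 (0.501 to 0.742) and over the Irg genes 0.932 (0.778 to 1.12). Among all genes called in this comparison 32.0% were higher, and 19.0% or 17.3% when libraries were rescaled to the same sum or by total reads.

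Further genes of the 2 families were taken from a list of 22, of which 19 were in the table and 4 were tested. Gbp2b, also known as Gbp1, had 115 reads in PS19, 0 in WT and 6 in PS19 Zbp1+/-. With the 0 set to 3 reads it was 38.3-fold higher in PS19 than in WT, and the lower bound of its interval was 30.6. Gm4951, an Irg gene, had 9, 68 and 5 reads, here and below in the order WT, PS19, PS19 Zbp1+/-, with a ratio of 7.54 (3.75 to 17.2) for PS19 over WT. Ifi47, a further Irg gene (Irgd), had 32, 89 and 12 reads and a difference of 0.82. Gbp2b and Gm4951 were thus at least 2-fold higher in PS19 than in WT, at 1.75 and 1.05, and all 3 were 2-fold or more below PS19 in PS19 Zbp1+/-. All 3 reached the FPKM minimum through PS19 alone, so their direction was set by the filter, and nothing is read from these counts (2.2% and 5.16% of all genes tested). Irgq, a quiescent relative that interferon is not known to induce, had 1678, 1791 and 2396 reads, a difference of 0.09 between PS19 and WT, and was higher in PS19 Zbp1+/- than in PS19 (ratio 1.46, 1.37 to 1.55). Of the 19 genes, 14 had an interval above 1 for PS19 over WT, and 16 had one below 1 for PS19 Zbp1+/- over PS19, against 28.3% and 32.6% of all genes tested. The sets are unlike, since 15 of the 19 were not tested and some are close copies that may share reads. Among the weaker genes, Gbp4 had 25, 91 and 15 reads and Tgtp2, an effector, had 16, 43 and 6. Tgtp1, its near-identical copy, had 30, 41 and 7 reads, and Gbp11 had 16, 13 and 0. Gbp11 and Tgtp1 did not have an interval above 1 for PS19 over WT.

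The pathway that induces these GTPases was followed in 19 genes, of which 16 were tested. Between PS19 and WT 2 were at least 2-fold higher and none lower, against 2.2% higher among all genes tested, with a median of 0.56. Both, and Nlrc5, reached the FPKM minimum through PS19 alone and so had to be higher there. These were Usp18, a feedback inhibitor of type I interferon signalling (difference 1.59; 31, 191 and 7 reads), and Irf8, a myeloid transcription factor (1.47; 98, 487 and 124 reads). Irf1, the early transcription factor of interferon-gamma signalling, had 163, 216 and 114 reads and a PS19 over WT ratio of 1.32 (1.07 to 1.63), below the ratio of every member. Nlrc5, an interferon-gamma target that drives MHC class I genes, had 15, 163 and 14 reads, with a difference of 0.94 and a ratio of 10.8 (6.38 to 19.8). The receptor chains differed: Ifngr1 had a ratio of 2.03 and Ifngr2 of 0.738 (0.673 to 0.809). Ifng and Ifnb1, which encode the ligands, had 0 reads in all 3 libraries, so neither was detectable at this depth, and other interferon genes were not analysed here. In PS19 Zbp1+/- 5 of the 16 were below PS19 by 2-fold or more, against 5.16% of all genes tested, with a median of -0.53. Among the 5 were Usp18 at -2.10, Irf8 at -1.24, Irf9 at -1.18 and Ifngr1 at -1.14. Usp18 and Nlrc5 reached the FPKM minimum in this comparison through PS19 alone and so had to be lower in PS19 Zbp1+/-.

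Partners of the GTPases were counted in the same way. Of 9 inflammasome genes 6 were tested, and none was 2-fold higher in PS19 than in WT (median 0.62). Nlrp3, Pycard and Gsdmd were 2-fold or more below PS19 in PS19 Zbp1+/- (median of the list -0.96), against 5.16% of all genes tested. All 3 reached the FPKM minimum there through PS19 alone and so had to be lower. Pycard, the adaptor ASC, had 24, 108 and 16 reads. Gsdmd, the pore former, had 58, 128 and 33 reads. Casp1, the protease of the complex, went the other way, with 47, 25 and 27 reads and a PS19 over WT ratio of 0.531 (0.313 to 0.880). The 10 genes of the ubiquitin-like conjugation system of autophagy, which loads IRG and GBP proteins onto vacuoles, were all tested and none was called in any comparison. Their medians were -0.19 for PS19 minus WT and 0.09 for PS19 Zbp1+/- minus PS19.

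**Figure D4:**
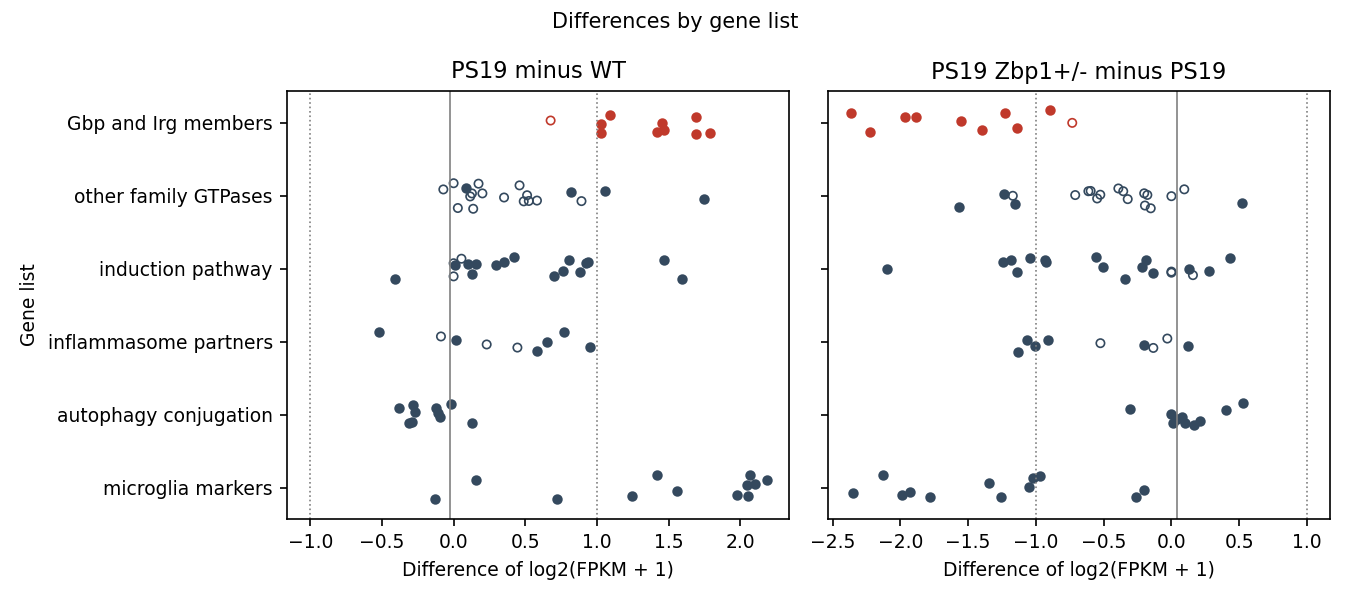
Difference of log2(FPKM + 1) (x axis) for each gene of 6 lists (y axis), with PS19 minus WT on the left and PS19 Zbp1+/- minus PS19 on the right; filled points were tested, open points were under an FPKM of 1 in both libraries or are not annotated as protein-coding, the grey line is the median of all genes tested and dotted lines mark 2-fold. The members lie near the microglia markers and away from the autophagy genes, whose medians were -0.19 and 0.09.

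Microglia markers moved with the GTPases. Of 12 markers 9 were at least 2-fold higher in PS19 than in WT (median 1.77), against 2.2% of all genes tested. In PS19 Zbp1+/- 9 were 2-fold or more below PS19 (median -1.30), against 5.16% of all genes tested. Itgam, 1 of these 9, reached the FPKM minimum there through PS19 alone and so had to be lower. All markers had reads in every library. Their summed FPKM was 690.4 in PS19, against 191.8 in WT and 201.9 in PS19 Zbp1+/-. Single markers had PS19 over WT ratios of 0.904 to 5.41 (median 3.65), against 3.71 to 17.0 (median 4.64) for the members. The homeostatic markers Tmem119 (440, 497 and 374 reads) and P2ry12 (490, 444 and 349 reads) were an exception, with ratios between any of the libraries of 0.776 to 1.13. For PS19 Zbp1+/- over PS19 the median ratio was 0.303 for the markers and 0.156 for the members, and for PS19 Zbp1+/- over WT it was 1.02 and 0.725. The summed FPKM of the members was 5.76% of that of the microglia markers in PS19, against 4.49% in WT and 2.91% in PS19 Zbp1+/-. The part of microglia in the difference of the GTPases was not tested.

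Markers of other cell types were counted beside them. Over all genes tested, 2.2% were at least 2-fold higher in PS19 than in WT (median -0.03). In PS19 Zbp1+/- 5.16% were 2-fold or more below PS19 (median 0.04). Among 8 astrocyte markers 2 were at least 2-fold higher in PS19 than in WT (median 0.62) and 3 were 2-fold or more below PS19 in PS19 Zbp1+/- (median -0.78). None of 8 endothelial markers was called in either comparison (medians 0.05 and -0.18). T and NK cell markers, from a list of 14, were weak, with a summed FPKM of 1.53 (WT), 4.13 (PS19) and 2.76 (PS19 Zbp1+/-), where 4, 1 and 11 markers were at 0 reads. In PS19 Zbp1+/- the T and NK markers with reads were Lck (25, 50 and 53 reads in the order given above), Trac (3, 12 and 20) and Cd4 (5, 10 and 17). Oligodendrocyte markers were not called between PS19 and WT, but all 6 had a counting interval above 1 (median 0.80), against 28.3% of all genes tested. In PS19 Zbp1+/- all 6 were 2-fold or more below PS19 (median -1.36) and had an interval below 1 against WT (median -0.54). Against WT, 31.3% of all genes tested had an interval below 1. The 8 choroid plexus markers were 2-fold or more below PS19 in PS19 Zbp1+/- (median -3.19) and were not called between PS19 and WT (median -0.25). Of these 8, only Ttr and Kl reached the FPKM minimum in PS19 Zbp1+/- too, and the others had to be lower there than in PS19. None of 8 hippocampal neuron markers was called between PS19 and WT (median -0.32). In PS19 Zbp1+/- 1 of them, Slc17a7, was 2-fold or more above PS19, as were 255 of the 12772 genes tested (median of the list 0.09). Against PS19, 4 of these neuron markers had an interval above 1 and 3 had one below 1. The part of these differences in tissue make-up in the values of the GTPases was not tested.

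The genes whose pattern over the 3 libraries was most like the mean of the 9 members that reached an FPKM of 1 were sought among 12866 protein-coding genes. The measure was the Euclidean distance between values of log2(FPKM + 1) centred on each gene's mean, a description over 3 libraries. The nearest was Ctsz, a lysosomal cysteine protease, at a distance of 0.0259, with an FPKM of 68.9 in PS19, 26.0 in WT and 22.1 in PS19 Zbp1+/-. It was followed by Rab37, a vesicle GTPase (0.0352), and Msn, the membrane linker moesin (0.0359). Irf7, the interferon-inducible regulator of type I interferon genes (0.0398), and Trim30d (0.0467) came next. The members themselves lay at 0.193 (Irgm1) to 0.526 (Gbp2) from their own mean, and 309 genes, 2.40% of all, lay within the largest of these distances. The pattern was thus not held by the GTPases alone.

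Genes around the members were compared in the same way. Within 200 kb of a member, 18 protein-coding genes outside the families were tested, by a rule added after values had been seen. Their PS19 minus WT differences ran from -0.57 to 0.24 with a median of -0.08, and none was called. Their PS19 Zbp1+/- minus PS19 differences ran from -0.69 to 0.39 with a median of 0.14, and none was called. By reads, Pdlim5 and Pkn2, picked out after their values were seen, were highest in PS19 beyond counting error. Pdlim5 had a PS19 over WT ratio of 1.22 (1.11 to 1.34) and a PS19 Zbp1+/- over PS19 ratio of 0.555 (0.497 to 0.621). Pkn2 had ratios of 1.24 (1.10 to 1.39) and 0.557 (0.487 to 0.636). These PS19 over WT ratios were below those of every member.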

How the data were processed

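The authors deposited 1 table of FPKM values with gene names, positions, lengths and biotypes for 3 RNA-seq libraries. Per the labels' protocols, TRIzol was used for extraction and an NEB Next Ultra kit for the libraries. Trim Galore 0.6.5, STAR 2.5.3a, featureCounts 2.0.4 and mm39 are named in the submitters' processing notes. Gene positions in the table matched GENCODE M21 (GRCm38) for 98.3% of 54495 IDs and for 9 of the 10 members (all but Iigp1), and are printed as the table gives them. Strandedness is not given in the sources used here. Each FPKM times gene length was a whole multiple of 1 step (tolerance 0.01) in 100% of values. This gave whole reads and implied library sizes of 17253479 (WT), 17287957 (PS19) and 15826984 (PS19 Zbp1+/-).

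Differences of log2(FPKM + 1) and read ratios with exact 95% intervals were computed with Python 3.11.15, numpy 2.4.6, pandas 2.3.3 and scipy 1.17.1, and copies were sought with BLAST 2.17.0. No molecular identifiers are given, so reads may not be independent molecules and intervals cover counting error only. With 1 library per genotype no p-value was computed. A count of 0 reads was set to 3 where a fold value is given for it. The scripts were tested on simulated data. All members and Zbp1 are named, as are genes of the lists with at least 10 reads in a library and the 5 genes nearest to the members' mean pattern. 1 gene of the induction pathway is counted in its list and is not reported here by name. Members and lists were chosen with earlier results of these data known. Other pseudocounts, filters, scalings, thresholds and biotypes were tried.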

Additional observations from a re-analysis of the deposited data

Results flagged for a closer look

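Of 29 non-coding features within 200 kb of a member, 2 had at least 10 reads in PS19 and a PS19 over WT counting interval above 1, outside the protein-coding genes compared above. BC023105, a pseudogene near Iigp1, had 20 reads in PS19 and 0 in both other libraries. With the 0 of WT set to 3 reads this was 6.65-fold more than WT, and the lower bound of the interval was 4.93. Gm16170, annotated as antisense and lying near Irgm1, had 17 reads in PS19, 5 in WT and 6 in PS19 Zbp1+/-, a PS19 over WT ratio of 3.39 (95% interval 1.20 to 11.8).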

How the results depend on the processing

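For PS19 minus WT the count of 9 members became 0 at a 4-fold threshold and was 9 under every other alternative that gave a value. The median of 1.45 became 1.91 with a pseudocount of 0.1, 1.90 after rescaling to the same sum (TPM) and 2.14 as a log2 ratio of reads. For PS19 Zbp1+/- minus PS19 the count of 8 became 2 at a 4-fold threshold and 9, with Gbp9, under pseudocounts of 0.1 and 0.5, as TPM, at 1.5-fold, as a read ratio and by the counting interval, and the median of -1.55 became -2.25 with a pseudocount of 0.1, -2.25 as TPM and -2.50 as a read ratio. For PS19 Zbp1+/- minus WT the count of 0 became 2 with a pseudocount of 0.1, 1 with 0.5, 2 as TPM, 2 at 1.5-fold, 2 as a read ratio and 3 by the counting interval, a rule chosen after seeing the data. No member changed sign under 60 values each in the first 2 comparisons; in the third, 3 of 60 did, all of Irgm1 (-0.10 as TPM, -0.07 by total reads, -0.01 by the median ratio). TPM moved the median of all genes to 0.09, -0.23 and -0.14 in the 3 comparisons, and relative to it the members' medians were 1.81, -2.03 and -0.75.

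Over all genes the counts of 280, 659 and 283 became 541, 1184 and 543 with a pseudocount of 0.1, 582, 1495 and 626 as TPM, 573, 1232 and 594 as read ratios, 806, 1544 and 886 at 1.5-fold, 37, 104 and 53 at 4-fold, 514, 1041 and 588 over all biotypes, 102, 241 and 78 at a mean FPKM of at least 5, and 3596, 4170 and 3887 by the counting interval. No member reached that mean FPKM, so it gave no member value. No paired analysis was possible because each genotype had 1 library, and no replicate could be left out. Counts under 10 reads, those of Gbp6 in WT and PS19 Zbp1+/-, limit its ratios.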
